A study of Mus musculus with 3 samples.

Results

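miR-127 is a microRNA (miRNA) hairpin that gives rise to a 3p and a 5p arm, and both were measured in mouse fibro/adipogenic progenitors (FAPs), stromal cells between muscle fibres from which fibroblasts and fat cells can arise. The members were the table rows named mmu-miR-127-3p and mmu-miR-127-5p, which are 2 of 1097 items in all. The pair was chosen by its counts in these same 3 libraries, with earlier results of these data in view. Levels and differences between the libraries are therefore given as a description. The small RNA libraries came from primary WT cells taken straight from muscle without culture. 1 library was from normal muscle, 1 from muscle 5 days after an injection of cardiotoxin (a snake toxin that kills fibres and sets off regeneration), and 1 from muscle whose sciatic nerve supply had been cut 3 weeks earlier (denervated). The sources used here do not give strain, age, sex, the number of animals behind a library or the way FAPs were isolated. Each condition had a single library, so no difference could be checked in replicates and none was tested. Intervals in parentheses are 95% exact intervals and cover counting error only.

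Most miRNAs are cut from a hairpin whose arms pair with each other, and usually 1 arm is retained in Argonaute more than the other. Target recognition rests mainly on the seed, bases 2 to 8 of the mature miRNA. miR-127 lies in the imprinted Dlk1-Dio3 region, where the maternally inherited chromosome expresses a series of noncoding RNAs and miRNAs, and the paternal one expresses protein-coding genes such as Dlk1 and Rtl1. Mouse miR-127 is made from a transcript antisense to Rtl1, a gene derived from a retrotransposon and needed in the placenta, and it can direct cleavage of the Rtl1 mRNA.

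The hairpin and its arms are printed because the deposited 5p row did not begin where the reference places that arm. The Mir127 hairpin of RefSeq (GRCm38) lies on the plus strand at chr12:109592846-109592915, and capitals mark the mature arms, 5p first.
Mir127 hairpin: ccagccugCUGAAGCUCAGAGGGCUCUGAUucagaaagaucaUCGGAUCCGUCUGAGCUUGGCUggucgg
In the mature sequences below, capitals mark the seed.
miR-127-3p, RefSeq and deposited row: uCGGAUCCgucugagcuuggcu
miR-127-5p, RefSeq: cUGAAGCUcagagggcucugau
miR-127-5p, deposited row: gAAGCUCAgagggcucugauu

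The deposited 3p sequence was identical to the RefSeq mature miRNA over its 22 bases, at chr12:109592888-109592909. The deposited 5p sequence started 2 bases downstream of the RefSeq arm and ran 1 base past its end, at chr12:109592856-109592876. All of its 21 bases matched the hairpin. The shift moved its seed from UGAAGCU to AAGCUCA. Of 670 mature mouse rows in the table, 108 (16.1%) carried a shifted 5′ end in their name, and 18 of them began 2 bases late. No other row of the table, and no other of the 1679 distinct mature mouse entries of RefSeq, had the 3p seed CGGAUCC. The AAGCUCA seed was found in no RefSeq mature miRNA and in no other row. 1 sequence is listed per row, and the sources used here do not say whether a row's count also holds reads with other ends. Minimum free energy folding placed 17 of 22 bases of the 5p arm and 20 of 22 bases of the 3p arm in pairs, 16 of them between the arms.

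Because the hairpin is antisense to Rtl1, its 3p arm has a fully complementary site in the Rtl1 mRNA. The site is printed from the GENCODE M21 Rtl1 transcript with the match to the seed in capitals, and it occurred once in that transcript, at bases 2642 to 2663, inside the coding sequence.
Rtl1 site: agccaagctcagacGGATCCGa
On the genome the site is the minus strand of chr12:109592888-109592909. Of the 7 hairpin genes listed for the Rtl1 antisense cluster (Mir431, Mir433, Mir127, Mir434, Mir432, Mir3071 and Mir136), 6 were reverse complements of the Rtl1 transcript, and Mir3071 lay on the same strand as Rtl1. All 7 fell inside the Rtl1 coding sequence, and 5 had rows in the table. Mir127 lay 1007 bases from Mir433 on one side and 1590 bases from Mir434 on the other. Rtl1 itself is a messenger RNA and was not measured by these libraries.

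Totals were 4471365 counts for normal, 3636249 for cardiotoxin and 7193088 for denervated, and levels are counts per 1000000 counts of the library (CPM). miR-21a-5p, which is induced in many injured tissues, made up 53.9% of the cardiotoxin counts, 2.14% of the normal and 10.4% of the denervated. Markers of other cells differed between the libraries too. The 8 miRNAs listed for leukocytes summed to 422 CPM in normal, 24010 in cardiotoxin and 762 in denervated, and those of miR-223-5p and miR-511-3p were 0 in both normal and denervated. The 9 measured of the 10 mesenchymal miRNAs, which should mark FAPs, summed to 259782 CPM in normal, 17413 in cardiotoxin and 254647 in denervated. In the cardiotoxin library all 9 were lower than in normal by 2-fold or more, beside 39.5% of the 446 items averaging at least 10 CPM. With miR-21a-5p taken out of the totals, 7 of the 9 were, beside 135 of the 446 items. miR-214-5p was at a count of 0 in cardiotoxin. The 5 measured of 6 muscle fibre miRNAs summed to 897, 922 and 3140 CPM in the same order, with miR-499-5p at 0 in cardiotoxin. Sums in that order were 5401, 19251 and 1659 CPM for the 2 endothelial miRNAs, 909, 301 and 471 CPM for the 7 epithelial ones (miR-205-5p at 0 in cardiotoxin), and 68.8, 94.1 and 98.3 CPM for the 3 erythroid ones. Members within a sum went different ways in cardiotoxin against normal. Past 2-fold, 2 epithelial members rose and 2 fell, with miR-200c-3p 5.55-fold higher and miR-203-3p 7.45-fold lower. In the muscle fibre list 2 rose and 1 fell, with miR-206-3p 9.77-fold higher and miR-1a-3p 1.34-fold lower. In bulk RNA such as this, fewer cells of a type and less RNA per cell cannot be told apart.

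miR-127-3p was an abundant miRNA of FAPs from normal and denervated muscle and a minor one in the cardiotoxin library. It had 81780 counts in normal, 420 in cardiotoxin and 93624 in denervated. Its level was 18289.7 CPM (18165 to 18416) in normal, 116 CPM (105 to 127.1) in cardiotoxin and 13016 CPM (12933 to 13099.5) in denervated. Normal was highest, denervated next and cardiotoxin lowest, and none of the 3 intervals overlapped. Among mature mouse miRNAs it ranked 17 of 521 detected in normal, between miR-30a-5p at 18959 CPM and miR-29a-3p at 17463 CPM. The rank was 24 of 567 in denervated, between miR-30a-5p (13381 CPM) and miR-30d-5p (12705 CPM). In cardiotoxin it was 155 of 483, between miR-877-3p at 118 CPM and miR-155-5p at 111 CPM, both within its counting interval.

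miR-127-5p, the minor arm, was at 544 CPM (523 to 566) in normal from 2433 counts, 1.38 CPM (0.446 to 3.21) in cardiotoxin from 5 counts and 551 CPM (534 to 569) in denervated from 3966 counts. Normal and denervated had overlapping intervals, and the cardiotoxin library lay far below both. The 5p arm ranked 110 of 521 in normal, 105 of 567 in denervated and 445 of 483 in cardiotoxin.

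**Figure D1:**
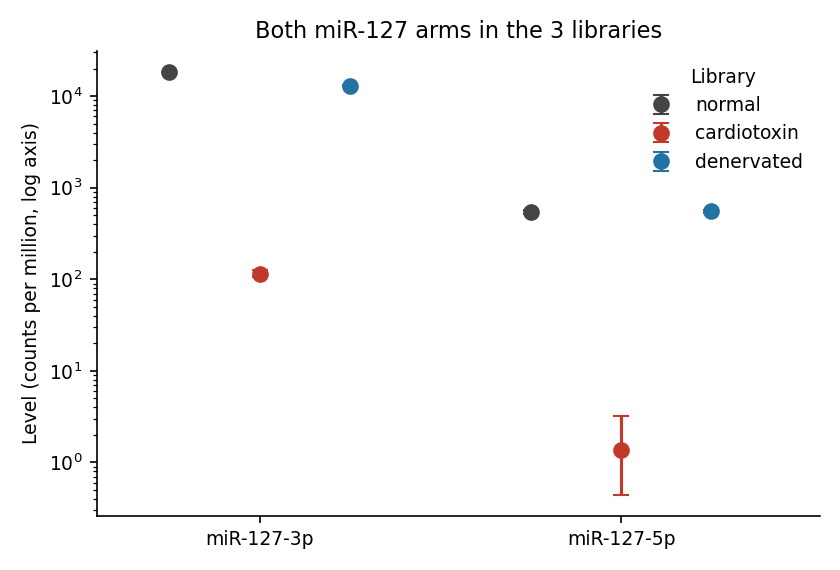
Level of miR-127-3p and miR-127-5p in each library, in CPM on a log axis. Points are single libraries and bars are 95% Poisson intervals for counting error, most of them smaller than the points. Both arms were lowest in cardiotoxin, at 116 and 1.38 CPM.

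Cardiotoxin was compared with normal to ask how the miRNAs of cells labelled as FAPs differ during regeneration. miR-127-3p was 158-fold lower (144 to 175) in the cardiotoxin library and miR-127-5p 396-fold lower (169 to 1219.8). On the log2 scale of CPM plus 1, the ratios were -7.29 and -7.84. Of the 446 items that averaged at least 10 CPM across the libraries, 39.5% were at least 2-fold lower in cardiotoxin and 32.3% at least 2-fold higher, so being lower was common. In the order of these ratios the 5p arm stood 5 from the lowest of the 446 items and the 3p arm 15 from the lowest. For items without counts in cardiotoxin the ratio is limited by the 1 CPM added, so this order depends partly on abundance. Once miR-21a-5p was removed from the totals, 220 items were higher and 135 lower, in place of 144 and 176. The 3p ratio was then -6.22 and the 5p ratio -7.13, while the median of the 446 items rose by 1.06. Against that median the 3p ratio was -7.21 with the full totals and -7.18 without miR-21a-5p, and the 5p ratio -7.76 and -8.10. A change of totals shifts every ratio and the median alike, so these differences can move only through the 1 CPM added.

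The mesenchymal miRNAs were lower along with miR-127 in this comparison. By log2 ratio, 4 of the 9 were lower than miR-127-3p, and these were miR-199a-5p, miR-199b-3p, miR-199b-5p and miR-214-5p. miR-199a-5p was 166-fold lower (154 to 178), which overlaps the interval of miR-127-3p. The other 5 were less far below normal. Among those, miR-214-3p was 89.9-fold lower (74.8 to 109) and miR-22-3p, which many cell types express, was 2.49-fold lower. For every 1000 counts of the mesenchymal list there were 70.4 counts of miR-127-3p in normal (69.9 to 70.9), 6.63 in cardiotoxin (6.01 to 7.30) and 51.1 in denervated (50.8 to 51.4). In cardiotoxin most of the list's counts came from miR-22-3p at 11317 CPM and miR-10b-5p at 3498 CPM, so the list's ratio there follows those members. Taken against single members of the list, a choice made after the values were seen, the direction was not uniform. For every 1000 counts of miR-199a-5p there were 566 of miR-127-3p in normal, 592 in cardiotoxin and 282 in denervated. Against each of the 8 members with counts in all libraries, the ratio in cardiotoxin was above normal for 3 and below it for 5, and the ratio in denervated was above normal for 1 and below it for 7. The leukocyte miRNAs differed the other way, all 8 being at least 2-fold higher in cardiotoxin, beside 32.3% of the 446 items. miR-223-3p was 732-fold higher (521 to 1064). The part of the leukocyte and mesenchymal differences in the lower level of miR-127 was not tested.

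Denervated was compared with normal to ask the same of muscle without its nerve. The miR-127 arms parted here. miR-127-3p was 1.41-fold lower (1.39 to 1.42) in denervated, and miR-127-5p was 1.01-fold higher, with an interval from 0.963 to 1.07 that includes no difference at the full totals. The interval lay above no difference with TMM factors (1.08-fold, 1.03 to 1.14), DESeq2 factors (1.11-fold, 1.05 to 1.16), the authors' signal (1.09-fold, 1.04 to 1.15) and totals without miR-21a-5p (1.11-fold, 1.05 to 1.16). The log2 ratios were -0.49 and 0.02. Neither reached 2-fold, against 6.28% of the 446 items at least 2-fold lower and 6.28% at least 2-fold higher. By log2 ratio the 3p arm stood 83 from the lowest of the 446 items and the 5p arm 268 from the lowest. With other scalings the 3p ratio lay between -0.49 and -0.36 and the 5p ratio between 0.02 and 0.15. A scaling moves both arms alike, so it could not change their order. Beside these values, denervated was at least 2-fold above normal for 4 of 5 muscle fibre, 4 of 8 leukocyte, 1 of 3 erythroid and 0 of 9 mesenchymal miRNAs. It was at least 2-fold below normal for 2 of 2 endothelial and 5 of 7 epithelial miRNAs. The part of these differences in the miR-127 ratios was not tested. With no replicate, it is not known how these sizes compare with the spread between animals.

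In the second sheet of the authors' deposited table, miR-127-3p was 1 of 21 miRNAs listed with normal and denervated signals. The authors' deposited table gave it a normalized signal of 90902 in normal and 69800 in denervated, which was 1.302-fold lower. All 21 were lower in denervated in the authors' deposited table, by 1.03-fold to 1.90-fold. It stood 9 by signal in normal and 8 by size of the decrease in the authors' deposited table, and no other miRNA of the Dlk1-Dio3 list was on that sheet.

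Cardiotoxin was set against denervated to compare the injuries directly. miR-127-3p was 113-fold lower (102 to 124) in cardiotoxin and miR-127-5p 401-fold lower (172 to 1236). In this comparison 38.6% of the 446 items were at least 2-fold lower and 33.6% at least 2-fold higher. The 3p arm stood 20 from the lowest ratio and the 5p arm 5 from the lowest, with the same limit for items without counts in cardiotoxin. Because normal and denervated levels of the 5p arm were nearly equal, both comparisons with cardiotoxin gave it nearly the same fold, and they share the cardiotoxin library.

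**Figure D2:**
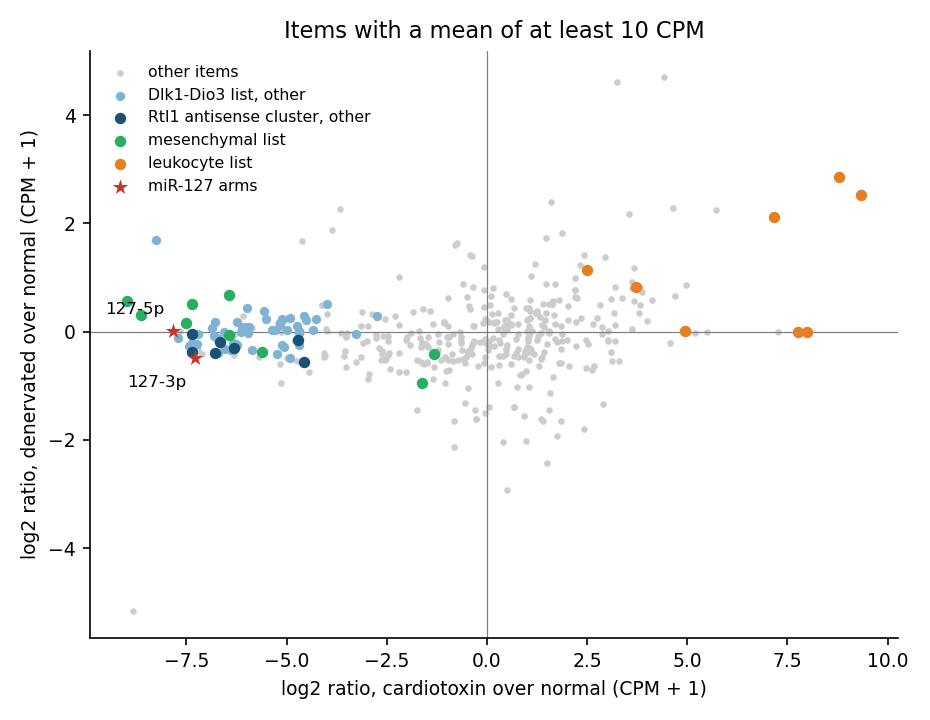
Log2 ratio of cardiotoxin over normal (x axis) and of denervated over normal (y axis) for the 446 items that averaged at least 10 CPM, with lists in colour. Both axes share the normal library. The miR-127 arms lie at -7.29 and -7.84 on the x axis among the miRNAs of the Dlk1-Dio3 and mesenchymal lists, and close to 0 on the y axis.

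The ratio of the arms within a library does not depend on the library's total. miR-127-3p made up 97.1% of the counts of both arms in normal (97.0 to 97.2%), 98.8% in cardiotoxin (97.3 to 99.6%) and 95.9% in denervated (95.8 to 96.1%). That is 33.6 counts of 3p for each count of 5p in normal (32.3 to 35.01), 84.0 in cardiotoxin (35.7 to 260) and 23.6 in denervated (22.9 to 24.4). The 3p arm was the main one in every library, and its share was lowest in denervated. The cardiotoxin ratio rests on 5 counts of the 5p arm.

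Between normal and denervated, the log2 ratio of 3p to 5p (from CPM plus 1) shifted by -0.51 for miR-127. Over 100 other hairpins whose arms both averaged at least 10 CPM, the median shift was 0.02, with quartiles of -0.33 and 0.24. A larger downward shift was seen in 16 of the 100, and a shift larger in either direction in 28. Within the Rtl1 antisense cluster, the shift was -0.15 for miR-434, 0.02 for miR-136 and 0.25 for miR-433. Between normal and cardiotoxin the shift of miR-127 was 0.55 from CPM plus 1, a value the pseudocount sets, since the 5p arm was at 1.38 CPM in cardiotoxin. From counts alone it was 1.32. That was higher than in 78 of the 85 other hairpins with counts above 0 for both arms in both libraries, and lower than in 7. A pseudocount-free shift was chosen after the data were seen, it rests on 5 counts, and 15 hairpins with an arm at 0 are left out of it.

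**Figure D3:**
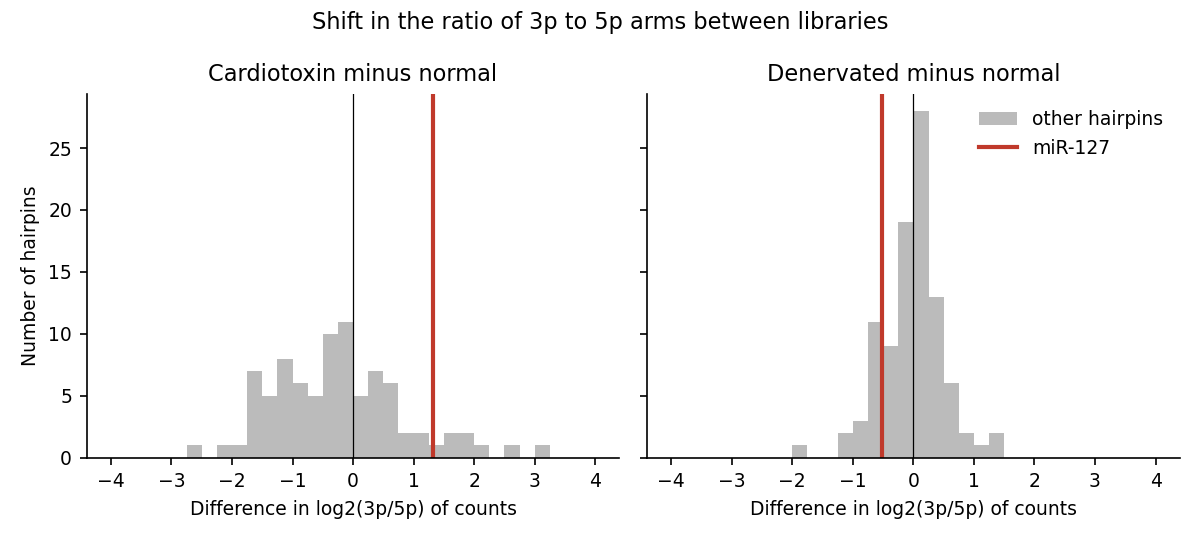
Histograms of the difference in log2(3p/5p) between cardiotoxin and normal (left) and between denervated and normal (right) for the other hairpins with all counts above 0 (85 on the left, 97 on the right), in bins of 0.25 and from counts with no pseudocount, with miR-127 as a red line. miR-127 lies at 1.32 on the left, where 7 hairpins are higher, and at -0.51 on the right, where 17 are lower.

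The neighbours of miR-127 in the Rtl1 antisense cluster had 8 measured arms, from miR-431, miR-433, miR-434 and miR-136. All 8 of 8 were at least 2-fold lower in cardiotoxin than in normal, against 39.5% of the 446 items averaging at least 10 CPM, with a median log2 ratio of -6.49 where the median of those items was -0.09. 7 of the 8 averaged at least 10 CPM, miR-431-3p being the exception. The next most abundant arms after miR-127-3p were those of miR-434. miR-434-3p was at 2475 CPM in normal, 23.4 in cardiotoxin and 2160 in denervated, and miR-434-5p at 1419, 7.70 and 1374 CPM. The arms of this hairpin were closer in abundance than those of miR-127. miR-136-3p was at 1712 CPM in normal, 9.35 in cardiotoxin and 1322 in denervated, which was 183-fold lower (131 to 265) in cardiotoxin than in normal. For miR-136-5p the decrease was 176-fold (80.7 to 481), with 6 counts in cardiotoxin. miR-433-3p was 99.6-fold lower (59.2 to 183) and miR-431-5p 34.8-fold lower (19.3 to 70.2), from 14 and 11 counts. miR-434-3p was 106-fold lower (85.6 to 133). The fold intervals of miR-431-5p and miR-434-3p lay wholly below that of miR-127-3p, so the folds of single arms differed beyond counting error. The other arm of the miR-434 hairpin, miR-434-5p, was 184-fold lower. Its interval overlapped those of miR-127-3p and miR-434-3p. Whether folds vary with place along the cluster was not tested. miR-433-5p and miR-431-3p were at a count of 0 in cardiotoxin. Taken against 3 counts in that library, they were at least 27.4-fold and 17.6-fold lower.

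In denervated, 0 of the 8 neighbours were at least 2-fold lower or higher than in normal, beside 6.28% in each direction among the 446 items. Their median log2 ratio was -0.25. The median of the 446 items was itself -0.09 at the full totals, so a ratio slightly below 0 was common. All 8 lay below 0 at these totals, from -0.56 for miR-433-5p to -0.05 for miR-434-5p. With TMM, DESeq2 or the authors' factors, or without miR-21a-5p, 6 did, and miR-434-5p and miR-431-3p crossed 0. At the full totals miR-127-3p, at -0.49, was lower than 7 of the 8 neighbours, and miR-127-5p, at 0.02, was above all 8. The interval of miR-433-5p, which was 1.504-fold lower (1.14 to 1.99), held the value of miR-127-3p. The decrease was 1.31-fold (1.22 to 1.41) for miR-136-5p and 1.29-fold (1.26 to 1.33) for miR-136-3p. The intervals of miR-431-5p and miR-431-3p included no difference. In cardiotoxin against denervated all 8 were at least 2-fold lower, beside 38.6% of the 446 items, with a median of -6.20.

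**Figure D4:**
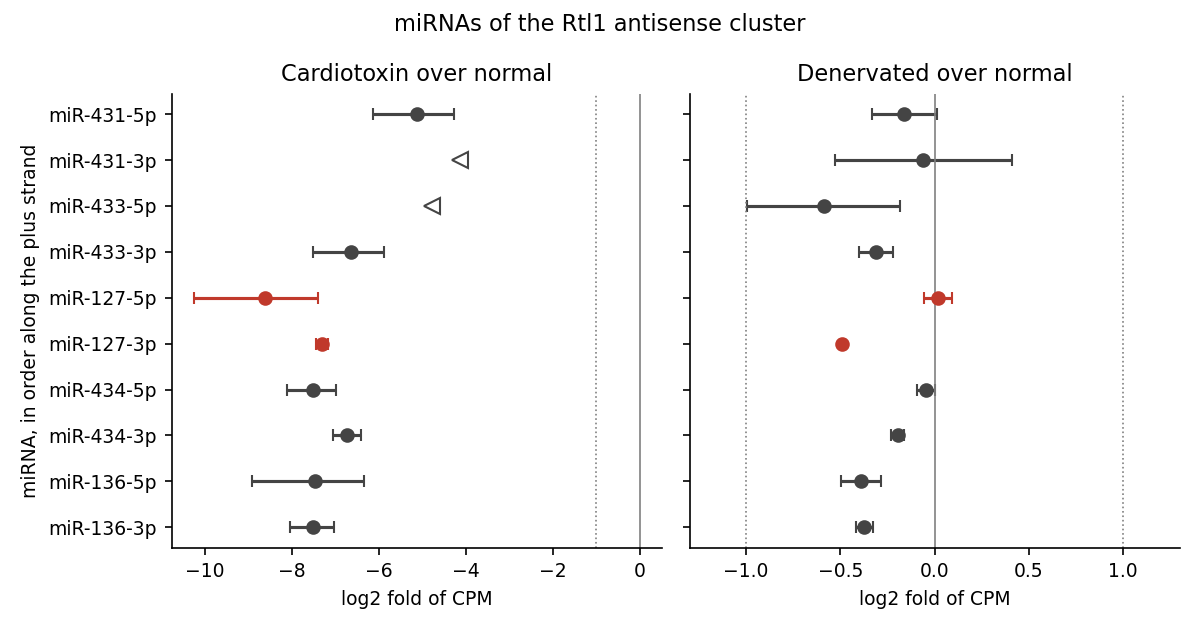
Log2 fold of CPM for each measured arm of the Rtl1 antisense cluster, in order along the plus strand, in cardiotoxin over normal (left) and denervated over normal (right), on different scales. Points have 95% counting intervals, open triangles are bounds for arms at a count of 0 in cardiotoxin, dotted lines mark 2-fold, and red marks miR-127. All 10 arms lie below -4 on the left and within 1 of 0 on the right.

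Counts within the Dlk1-Dio3 region give a measure that does not depend on the rest of the library. The list for the region had 85 measured arms, and they held 4.35% of all counts in normal, 0.0360% in cardiotoxin and 3.77% in denervated. miR-127-3p alone was 42.04% of the region's counts in normal (41.8 to 42.3%), 32.1% in cardiotoxin (29.6 to 34.7%) and 34.5% in denervated (34.3 to 34.7%). It was the most abundant arm of the region in each library. Its nearest follower was miR-379-5p, of the Mirg cluster, at 3596 CPM in normal and 4055 in denervated, and miR-541-5p at 36.03 CPM in cardiotoxin. The share of the region was thus lower in both injured libraries, and their intervals overlapped each other. Within the Rtl1 antisense cluster alone, miR-127-3p was 72.4% of the counts in normal (72.2 to 72.7%) and 69.7% in cardiotoxin (65.8 to 73.3%). That cardiotoxin interval included the normal share. In denervated the share of the cluster was 68.2% (68.0 to 68.5%). The 83 other arms of the region summed to 24668 CPM in normal and 24129 in denervated, nearly level, while miR-127-3p went from 18289.7 to 13016 CPM.

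Of those 83 other arms, 77 were at least 2-fold lower in cardiotoxin than in normal. Among the 55 that averaged at least 10 CPM all 55 were, beside 39.5% of the 446 items past the same minimum. Of the 83, 50 were at a count of 0 in cardiotoxin and 6 at 0 in normal. Ratios lower than that of miR-127-3p were seen for 6 of the 83. For an arm at 0 in cardiotoxin the ratio is set by its normal level and the pseudocount. A scarce arm could therefore not reach so low a ratio, and this count does not rank the decreases. In denervated against normal, 1 of the 83 was at least 2-fold lower and 5 were at least 2-fold higher, and 6 had a ratio lower than that of miR-127-3p. Among the 55, 0 were lower and 1 was higher by that fold, with a median of -0.03, beside 6.28% of the 446 items in each direction. The most abundant of the others had other ratios than miR-127-3p here. miR-379-5p was 1.13-fold higher (1.11 to 1.15) in denervated, miR-411-5p 1.05-fold higher (1.02 to 1.07) and miR-541-5p 1.002-fold higher (0.979 to 1.03), whereas miR-434-3p was 1.15-fold lower (1.12 to 1.17). In cardiotoxin these 4 were 114-fold, 122-fold, 71.7-fold and 106-fold lower than in normal.

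Likeness to miR-127 was measured by the distance between pairs of log2 ratios (cardiotoxin over normal and denervated over normal), so it rests on 3 libraries. Among 363 other mature mouse miRNAs averaging at least 10 CPM, the 8 nearest to miR-127-3p lay within 0.45. 6 of the 8 were of the Dlk1-Dio3 list, which held 55 arms other than miR-127 among those compared. Of the 6, miR-136-3p was nearest at 0.14, followed by miR-299a-3p, miR-329-5p, miR-382-3p, miR-434-5p and miR-409-5p. The other 2 were not on the list. miR-196a-5p, a miRNA of the Hox clusters, was at 1102 CPM in normal, 6.46 in cardiotoxin and 872 in denervated. miR-676-5p was at 138, 0 and 104 CPM. The 4 nearest to miR-127-5p were miR-218-5p, miR-485-5p, miR-199b-3p and miR-329-5p. Of these, miR-485-5p and miR-329-5p are of the Dlk1-Dio3 list and miR-199b-3p is of the mesenchymal list. miR-218-5p and miR-485-5p were at 0 CPM in cardiotoxin, as were miR-382-3p and miR-676-5p above. Their cardiotoxin ratios are set by the normal level and the pseudocount, so the size of their decrease was not measured. miR-127-5p itself rests on 5 counts in cardiotoxin. The arms of miR-127 stood 0.75 apart. The 5p arm was 19 in the order of likeness to the 3p arm, and the 3p arm was 13 in that of the 5p arm.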

How the data were processed

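Per the labels' protocols, the 3 small RNA libraries were built with TruSeq kits (Illumina). Values marked raw per the file headers were read as an estimated count for each row and library, of which 87.9% to 88.4% were whole numbers within 1e-06. The authors' deposited normalized signal equalled this count times 1 factor per library (1.11 normal, 1.12 cardiotoxin, 0.746 denervated), and the sources used here do not say how it was set. The submitters' processing notes name StringTie alone, without version or role. The sources used here give no aligner, miRBase release or build.

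The table held 1108 rows, and 3 emptied lines are not analysed here. Rows were named by the text before any end-variant suffix, and rows of one mature mouse name were summed (7 names, neither miR-127 arm), leaving 1097 items. CPM used the total of all rows. Folds are of CPM, and log2 ratios add a pseudocount of 1 CPM. Fold intervals are exact conditional binomial, levels exact Poisson and shares exact binomial (Clopper-Pearson), at 95%, on counts rounded to whole numbers (SciPy 1.17.1). With no molecular identifiers, reads are not independent molecules, and intervals hold counting error alone. A count of 0 was taken as 3 counts in that library for bounds. An item was called at 2-fold. No p-value was computed. The fold script was tested on simulated data. TMM (edgeR 4.0.16) and DESeq2 1.42.0 factors, other totals and pseudocounts were alternatives. RNAfold 2.7.2 folded the hairpin. Sequences and coordinates come from RefSeq and GENCODE M21 (both GRCm38), and both arms matched. The members and lists were chosen with earlier results of these data known. Named miRNAs were both arms, their cluster, the 4 most abundant arms of the region, the neighbours in level, those nearest in pattern and markers.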

Additional observations from a re-analysis of the deposited data

How the results depend on the processing

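No ratio of either arm reversed. Of 90 alternative values, 65 stayed within the counting interval, or within 1.5 times the count, of the value reported, and 25 moved beyond it. Some of the 65 could not move. Taking the highest row of each name changes nothing, since each arm has 1 row, and the authors' signal cannot change an arm share. The miR-127-3p ratio moved in every comparison with each of the scalings given next. The log2 ratio of miR-127-3p in cardiotoxin over normal was -6.22 without miR-21a-5p in the totals, -6.51 without the 5 most abundant items, -7.58 with TMM factors, -7.47 with DESeq2 factors and -7.58 with the authors' signal. In denervated over normal these settings gave, in the same order, -0.36, -0.45, -0.39, -0.36 and -0.38, and in cardiotoxin over denervated -5.85, -6.07, -7.19, -7.10 and -7.19. For miR-127-5p the total without miR-21a-5p gave -7.13 (cardiotoxin over normal), 0.15 (denervated over normal) and -7.27 (cardiotoxin over denervated). In denervated over normal it was 0.12 with TMM, 0.14 with DESeq2 factors and 0.13 with the authors' signal. A pseudocount of 5 CPM gave -6.43 and -6.45 against normal and denervated, since the arm was at 1.38 CPM in cardiotoxin. With a mean of at least 100 CPM only 5 neighbours in the cluster were left, and all 5 were lower in both comparisons with cardiotoxin. In cardiotoxin over denervated, 150 items were higher and 172 lower, against 212 and 135 without miR-21a-5p, 200 and 142 without the 5 most abundant, 110 and 191 with TMM and 110 and 192 with the authors' signal. In cardiotoxin over normal, 196 and 140 were higher and lower without the 5 most abundant. The arm shares do not depend on scaling. No paired analysis was possible because each condition has 1 library. The arm shift from normal to cardiotoxin was 0.55 from CPM plus 1 and 1.32 with no pseudocount. Depth limits the cardiotoxin values of miR-127-5p, at 5 counts, and of miR-433-5p and miR-431-3p, at 0, for which only bounds are given.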
